A study of Mus musculus with 17 samples.

Results

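V1 and dI4 interneurons are sorted classes of inhibitory neuron of the mouse spinal cord, and their gene expression was compared at birth (postnatal day 0, P0). The comparison used 6 of the series' 17 arrays, the 3 V1 and the 3 dI4 arrays at P0, and all 20678 genes that had a probe set naming 1 gene. V1 cells came from En1-Cre; Rosa.lsl.YFP mice and dI4/dILA cells from Ptf1a-Cre; Rosa.lsl.YFP mice, both collected at P0. In both, spinal cords were dissociated, cells with YFP fluorescence were sorted, and their RNA was amplified and hybridized to Affymetrix mouse expression arrays. All 6 samples carry the Cre-dependent YFP reporter, so no group here is without Cre or reporter. The sources used here do not give how many animals or litters made up a sample. The p-values measure the spread between labelled biological replicates.

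V1 interneurons arise next to motor neurons in the ventral cord, express the homeodomain factor En1 as they leave the cell cycle, and include the Renshaw cells and Ia inhibitory interneurons of motor circuits. The dI4 class and its late-born relative dILA arise from dorsal progenitors that express the bHLH factor Ptf1a, which directs them to a GABAergic instead of a glutamatergic fate, and they settle in the dorsal horn, where they gate touch, itch and pain. A Cre-activated reporter stays on in a cell and its descendants after the driver gene is switched off, so each sort holds every labelled lineage and not a single state.

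Some samples stood apart. V1 replicates 1 and 3 correlated at 0.9995 across genes and differed 2-fold for 24 genes, against 404 and 410 genes for the other V1 pairs, so they were averaged and counted as 1 sample (V1 n = 2, dI4 n = 3). dI4 replicate 3 differed 2-fold from dI4 replicates 1 and 2 for 1238 and 1085 genes, whereas those replicates differed from each other for 200 genes. Counts are therefore given with and without dI4 replicate 3. Array medians lay between 5.32 and 5.39 (log2) in V1 and between 5.51 and 5.56 in dI4, so every V1 median was below every dI4 median. The log2 signal of Gapdh at its 3′ end exceeded that at its 5′ end by 1.04 to 1.31 in V1 and by 1.15 to 1.81 in dI4. Probe sets for bacterial transcripts, which serve as negative controls, read 1.56 to 2.55, and "control level" below means a reading under the highest of them on an array. Where the dimmer group lies at or near that level, the size of a difference depends on how the authors corrected background and is only a bound, so such sizes have no order among themselves.

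Values are log2 expression as the authors deposited it, so a difference of 1 is a 2-fold difference. Genes were tested with limma and called at an adjusted p under 0.05 (Benjamini-Hochberg over all 20678 genes). In that fit 1135 genes, 5.49% of all, were called. Of these, 504 were higher in V1 (2.44% of all genes) and 631 were lower (3.05%). Differences of at least 2-fold were held by 253 of the higher and 467 of the lower genes, and of at least 16-fold by 29 and 125. Higher genes made up 44.4% of the calls, and 67.0% after the arrays were centred on their medians, a step that moved the median difference of all genes from 0.03 to 0.21. Without dI4 replicate 3 there were 1518 calls, 697 higher and 821 lower, and 853 of the 1135 genes were among them. The samples of the sorts did not overlap, whether called or not, for many more genes: V1 lay above dI4 for 26.3% of all genes and below for 15.1%.

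The count of calls rested on few samples. It fell to 357 when V1 replicate 2 was left out and to 217 when the V1 pair was, each of which leaves 1 V1 sample that is assumed to vary like dI4. It was 341 without dI4 replicate 1 and 225 without dI4 replicate 2. Among the 166 called genes of the lists below, all kept their direction when 1 sample was left out, and 33 were called in all 5 such fits. Those that are reported are named as such below, and the other called list members reported lost their call in 1 or more of these fits. The linear fold of 6 of the 166 moved by over 1.5 times. The log2 difference of Skor1 was -10.42 without V1 replicate 2 and -8.00 without the V1 pair, that of Gfap -6.91 and -8.46, and that of Aqp4 -4.75 and -6.57. For Sox2 it was -6.09 without V1 replicate 2 and -7.64 without the V1 pair. Otp went to 10.07 without dI4 replicate 1 and to 8.44 without dI4 replicate 3, and Hoxa11 to 5.37 without dI4 replicate 3.

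**Figure D1:**
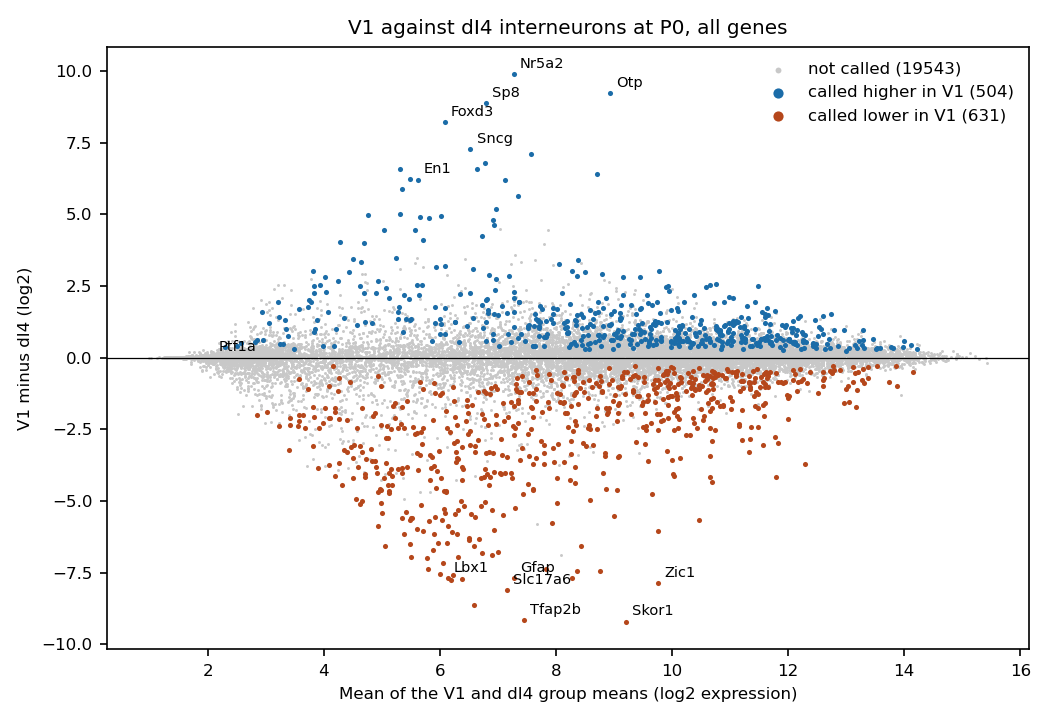
Mean of the group means (x axis, log2 expression) against V1 minus dI4 (y axis, log2) for 20678 genes at P0, with the 504 genes called higher in V1 in blue, the 631 called lower in orange and the rest in grey. Nr5a2 lies at the top with a difference of 9.88 and Skor1 at the bottom with -9.21, and more lower than higher genes lie beyond 4 on the log2 scale.

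En1 (Entrez gene 13798, chromosome 1), the driver of the V1 sort, matched the labels. It read 8.73 in the averaged V1 pair and 8.71 in V1 replicate 2, against 2.52, 2.48 and 2.53 in dI4 replicates 1, 2 and 3. V1 lay far above dI4, where En1 was close to the highest control probe sets. The difference was 6.21 ± 0.04 (SE; limma adjusted p = 4.98e-05). Ptf1a (Entrez gene 19213), the driver of the dI4 sort, did not mark it at this age. It lay between 2.04 and 2.11 in all samples, which is control level, and its difference was 0.02 (limma adjusted p = 0.771). Ptf1a is transcribed for a short time around cell birth, and its reading at P0 does not check the dI4 label.

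Some of the other markers separated the sorts in the direction of the labels. Of 8 V1 neuron markers 5 were higher in V1 (En1, Foxd3, Otp, Sp8 and Foxp2) and none lower, with or without dI4 replicate 3. These 5 include the driver and also belong to the V1 clade list below. That list comes from work that included these samples, so the 5 are no independent check of the labels. Of 10 dI4/dILA markers 5 were lower in V1 (Lbx1, Tfap2a, Tfap2b, Gbx1 and Npy), and 6 without dI4 replicate 3. The other 5 were not called. V1 lay below dI4 without overlap for 7 of the 10 and above for 2, against 15.1% and 26.3% of all genes. These markers were also chosen with earlier results of these data known and are no independent check. Markers of other cells moved as well. The excitatory dorsal horn markers Slc17a6, Lmx1b, Prrxl1, Pou4f1, Skor1 and Grp, 6 of 10 listed, were lower in V1 (7 without dI4 replicate 3). Summed over the list on a linear scale, excitatory markers reached 235 and 267 in the V1 samples and 21050 to 21527 in dI4. Most of each dI4 sum came from Skor1, at 13.82, 13.86 and 13.75 (log2), while Tlx3 and Nmu were at control level throughout. The mean log2 expression over the list was 3.38 and 3.65 in V1 and 7.34 to 7.59 in dI4. The astrocyte markers summed to 17075 and 15328 in V1 and to 65535 to 73288 in dI4, and 8 of 15 were lower in V1 (7 without dI4 replicate 3). Aldoc, with means of 13.30 in V1 and 13.12 in dI4, was not called and made up most of each V1 sum. Aldh1l1 and Agt of that list were at control level in both. In bulk samples fewer cells of a type and less RNA per cell cannot be told apart, and the part these cells have in the differences below was not tested.

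The transcription factors that divide V1 neurons into molecular clades formed the strongest block in favour of V1. Of the 27 such factors on the array, 18 were higher and 3 lower in V1, with a median difference of 2.13 against 0.03 for all genes. Without dI4 replicate 3 the counts were 17 and 5 and the median 2.23. This list comes from work on V1 neurons that included these samples, so its direction is no independent evidence. En1, Foxd3, Sp8, Nr5a2 and Onecut1 were called in every fit that left out 1 sample.

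Nr5a2, an orphan nuclear receptor, read 12.16 in the V1 pair and 12.27 in V1 replicate 2, and 2.81, 2.14 and 2.06 in the dI4 replicates. The dI4 readings were at or just above control level, and the difference was 9.88 ± 0.27 (SE; limma adjusted p = 0.00158). Otp, a homeodomain factor, read 13.51 and 13.58 in V1 and 5.98, 4.22 and 2.72 in dI4. Its V1 values were close together and its dI4 values spread over more than 3 log2 units, so the difference of 9.23 had an SE of 1.04 (limma adjusted p = 0.0259). The call was lost without V1 replicate 2, without the V1 pair and without dI4 replicate 2, with differences between 9.19 and 9.27.

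Sp8, a zinc finger factor, and Foxd3, a forkhead factor, were at control level in every dI4 sample. Sp8 read 11.23 ± 0.34 (SD, n = 2) in V1 and 2.34 to 2.36 in dI4, a difference of 8.89 ± 0.16 (SE; limma adjusted p = 0.000574). Foxd3 read 10.16 and 10.21 in V1 and 1.93 to 2.00 in dI4, a difference of 8.21 ± 0.05 (SE; limma adjusted p = 4.98e-05). Another Foxd3 probe set, with means of 7.09 in V1 and 2.98 in dI4, differed by 4.10 ± 0.80 (SE) and was not called. On the probe sets used, Sp8 and Foxd3 separated the sorts without overlap.

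The cut-homeodomain factors Onecut1 and Onecut2 were both higher in V1. Onecut1 read 8.74 and 8.46 in V1 and 2.06, 2.04 and 1.95 in dI4, where it was at control level, a difference of 6.58 ± 0.10 (SE). Onecut2 read 9.94 and 9.91 in V1 and 3.95, 3.43 and 2.70 in dI4, a difference of 6.57 ± 0.40 (SE). Foxp2, a forkhead factor that marks a large V1 clade, read 11.99 and 11.83 in V1 and 6.47, 5.13 and 4.94 in dI4. Its difference was 6.39 ± 0.54 (SE; limma adjusted p = 0.0147). The calls for Onecut2 and Foxp2 were lost, like that for Otp, without V1 replicate 2, without the V1 pair and without dI4 replicate 2, with differences of 6.56 to 6.61 and 6.20 to 6.47.

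The estrogen-related orphan receptors were both higher in V1. Esrrb, higher by 4.99, read 7.54 and 8.07 in V1 and 2.38 to 3.38 in dI4, at or just above control level, and its other probe sets, at 0.02 and 0.31, were not called. Esrrg was higher by 2.49 and high in both sorts (12.85 and 12.60 against 9.93 to 10.47). Foxp1 and Foxp4 were higher by 2.13 and 2.22, Nr4a2 by 2.20, St18 by 2.07 and the LIM-only factor Lmo3 by 1.54. Prdm8 and Zfhx4 were higher by 1.29 and 1.04, and their adjusted p-values of 0.0479 and 0.0496 lay close to the threshold.

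Against this direction, 3 of the V1 clade factors were lower in V1. Nr2f2, the orphan receptor COUP-TFII, read 8.54 and 8.50 in V1 and 13.14, 13.06 and 12.34 in dI4, a difference of -4.32 ± 0.28 (SE; limma adjusted p = 0.00974). Lhx1, a LIM-homeodomain factor of many inhibitory classes, differed by -2.17 and the glucocorticoid receptor gene Nr3c1 by -1.94. Prox1 and Tshz2, at -0.82 and -1.79, were called lower only without dI4 replicate 3 among the fits that left out a sample. Bhlhe22, Nfib and Lhx5 lay between -0.22 and 0.00 and were not called. Pax2 and Mafa were not used here.

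Factors of the dI4 and dILA lineages ran the other way. Of 23 on the array, 14 were lower and 1 higher in V1, with a median of -3.67 (15 lower, 2 higher and -3.74 without dI4 replicate 3). Lbx1, Tfap2b, Zic1, Zic4 and Sall3 were among those called in every fit that left out 1 sample. Both AP-2 factors, Tfap2a and Tfap2b, were lower in V1. Tfap2b read 2.83 and 2.92 in V1 and 12.29, 11.87 and 11.93 in dI4, so V1 lay near control level, and the difference was -9.16 ± 0.15 (SE; limma adjusted p = 0.000531). Tfap2a read 2.24 and 2.31 against 10.43, 10.59 and 11.73. It was at control level in V1 and highest in dI4 replicate 3, with a difference of -8.64 ± 0.45 (SE; limma adjusted p = 0.00631). Without the V1 pair it was not called, at -8.61. Lbx1, the homeodomain factor of dorsal classes dI4 to dI6, read 2.23 and 2.35 in V1 and 10.28, 9.88 and 9.79 in dI4, a difference of -7.69 ± 0.17 (SE; limma adjusted p = 0.00114).

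The Zic zinc finger factors of the dorsal cord Zic1, Zic2 and Zic4 were called lower in V1, with differences of -7.87, -7.57 and -7.56. This grouping was made after the values were seen. Zic1 read 6.29 and 5.34 in V1 and 13.61, 13.63 and 13.81 in dI4. Zic4 read 2.30 and 2.13 in V1 and 9.88, 9.59 and 9.86 in dI4, so it was at control level in V1 while Zic1 was not. The call for Zic2 was lost without the V1 pair, at -7.53. Zic1 and Zic4 are neighbours on chromosome 9 and point away from each other, with 3204 bases between their RefSeq starts. Of the 31 genes named by rank or as drivers, 23 matched a RefSeq promoter. Those of Zic1 and Zic4 are shown because the pair moved together (RefSeq, GRCm38.p6, from 250 bases before to 50 after the start, each on its gene's own strand). Capitals mark a match to the AP-2 motif GCCNNNGGC, which reads the same on both strands.
Zic1 (minus strand, chr9:91365719-91366018): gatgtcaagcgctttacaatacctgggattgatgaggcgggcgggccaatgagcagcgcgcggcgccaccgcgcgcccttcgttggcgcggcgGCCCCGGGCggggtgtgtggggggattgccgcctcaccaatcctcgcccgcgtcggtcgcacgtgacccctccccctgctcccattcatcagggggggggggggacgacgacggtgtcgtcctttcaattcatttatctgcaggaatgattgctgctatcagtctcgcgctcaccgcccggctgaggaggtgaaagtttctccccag
Zic4 (plus strand, chr9:91368722-91369021): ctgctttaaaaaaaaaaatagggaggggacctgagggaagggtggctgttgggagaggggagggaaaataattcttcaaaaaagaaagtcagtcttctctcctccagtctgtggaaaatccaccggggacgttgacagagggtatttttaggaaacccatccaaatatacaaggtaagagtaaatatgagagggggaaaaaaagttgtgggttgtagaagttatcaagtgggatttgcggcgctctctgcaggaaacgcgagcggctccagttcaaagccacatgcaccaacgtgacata
The Zic1 window held 1 match and the Zic4 window none. Of 32851 RefSeq promoters of that length 16.6% held a match, and a match is a description of the letters and not a site. The windows were also searched on both strands for the nuclear receptor motif AAGGTCA and the homeodomain core TAATTA, and held neither.

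Among the other dI4 lineage factors, Gbx1 read 2.51 and 2.54 in V1 and 9.65, 9.85 and 8.18 in dI4, lowest in dI4 replicate 3, a difference of -6.70 ± 0.58 (SE; limma adjusted p = 0.0157). The paired-box factors of dorsal progenitors Pax3 and Pax7 differed by -5.59 and -3.67 and Pax8, which is kept in inhibitory neurons, by -1.64. Sall3 and Rorb, which mark dorsal inhibitory neurons, differed by -5.14 and -4.36. The bHLH factors split, with Neurod2 lower by -1.36 and Neurod1 higher by 1.40. Gbx2 was not called (-0.20), and Gsx1 and Gsx2 were at control level in both sorts.

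Of 17 genes of dorsal excitatory neurons on the array 9 were lower and none higher in V1, also without dI4 replicate 3, with a median of -0.73. The other 8 were not called, and 4 genes were at control level in both sorts. The 9 were read in the sort labelled as inhibitory dI4/dILA, and some were high in V1 as well, with V1 means of 13.01 for Ebf3, 10.15 for Maf, 9.76 for Ebf1 and 7.39 for Ebf2. Skor1, a corepressor that works with Lbx1, read 3.39 in the V1 pair and 5.81 in V1 replicate 2, and 13.82, 13.86 and 13.75 in dI4. The dI4 values were tight and the V1 values were not, and the difference of -9.21 had an SE of 0.77 (limma adjusted p = 0.0147). It was not called without dI4 replicate 1 or 2, at -9.20 and -9.19. Slc17a6, which encodes the vesicular glutamate transporter VGLUT2, read 3.14 and 3.07 in V1 and 11.26, 11.16 and 11.22 in dI4. No sample came near the other sort, and the difference was -8.11 ± 0.05 (SE; limma adjusted p = 4.98e-05). The homeodomain factors Pou4f1, Prrxl1 and Lmx1b differed by -7.35, -6.56 and -5.09 and, with Slc17a6 and Maf at -2.41, were called in every fit that left out 1 sample. Ebf1, Ebf2 and Ebf3, factors shared by several dorsal classes, were lower by -2.89, -2.35 and -0.73. Tlx3, the selector of the dorsal excitatory fate, read 1.94 to 2.00, and Slc17a7 2.05 to 2.14, which is control level in both sorts.

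None of 20 factors and markers of other ventral classes was called, and 14 of them were at control level in both sorts. Those of motor neurons, Chat, Slc5a7, Slc18a3 and Mnx1, were among the latter. Evx1, the V0 determinant, read 5.95 and 6.74 in V1 and 4.19, 3.81 and 3.03 in dI4 without overlap, at a difference of 2.67 (limma adjusted p = 0.0595), and it was called when all 17 arrays were fitted together (adjusted p = 0.00226).

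**Figure D2:**
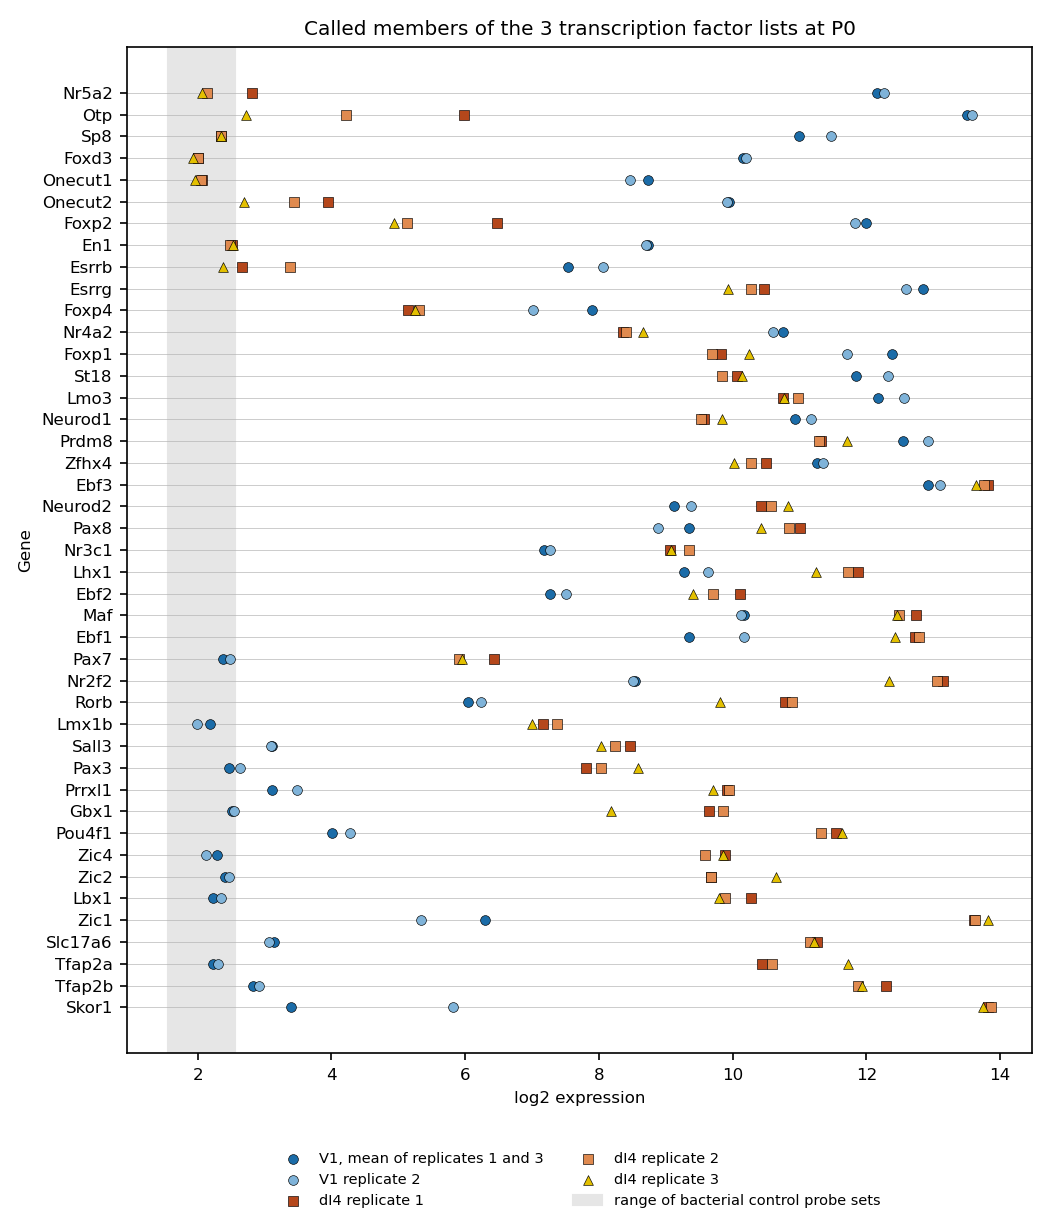
Log2 expression (x axis) in each sample at P0 for 43 of the 45 called genes (y axis) of the V1 clade, dI4/dILA and dorsal excitatory lists, ordered by difference; circles are V1, squares and triangles dI4, and the grey band is the range of the control probe sets. From Nr5a2 to Zfhx4 every V1 sample lies to the right of every dI4 sample, and from Ebf3 to Skor1 to the left. Genes inside the band include Sp8, Foxd3, Onecut1 and En1 in dI4 and Lbx1, Zic2, Zic4, Tfap2a and Gbx1 in V1.

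The machinery of inhibitory transmission was strong in both sorts. Gad2, which makes GABA, read 14.45 and 14.49 in V1 and 14.36, 14.34 and 14.19 in dI4, and Gad1 read 12.97 and 13.10 against 13.30, 13.29 and 12.67. On the probe sets used neither was called, at differences of 0.17 and -0.05 (limma adjusted p = 0.297 and 0.914). Another Gad2 probe set, with means of 13.21 in V1 and 12.56 in dI4, was higher by 0.65. It was called, narrowly, when all probe sets were fitted (limma adjusted p = 0.0493). Slc32a1, the vesicular transporter of GABA and glycine, read 13.82 and 13.69 against 13.04 to 13.33 and was not called (adjusted p = 0.0866). The neuronal glycine transporter gene Slc6a5 read 12.99 and 12.16 in V1 and 10.93, 11.03 and 11.08 in dI4. The sorts did not overlap, but the V1 samples differed and the difference of 1.56 missed the threshold (limma adjusted p = 0.0622); it passed when arrays were centred (0.021) and when all 17 were fitted (0.00151). The 1 called gene of the 9 was Slc6a11, a GABA transporter of astrocytes, lower in V1 by -2.29. Without dI4 replicate 3 there were 2 lower genes and none higher.

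Neuropeptide genes differed mostly towards dI4, whose dorsal horn neurons use many peptides. Of 26 on the array 7 were lower and 1 was higher in V1 (10 and 1 without dI4 replicate 3), with a median of -0.18. Crh, corticotropin-releasing hormone, was the higher gene. It read 10.53 and 10.60 in V1 and 7.65, 7.66 and 7.93 in dI4, a difference of 2.82 ± 0.11 (SE; limma adjusted p = 0.00353). Adcyap1, which encodes PACAP, was near control level in V1, at 3.21 and 2.73, and read 8.77, 8.64 and 8.57 in dI4. Its difference was -5.69 ± 0.17 (SE; limma adjusted p = 0.00199). Crh and Adcyap1 were called in every fit that left out 1 sample.

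Npy, a marker of a dorsal inhibitory subset, read 10.16 and 10.38 in V1 and 12.68 ± 0.15 (SD, n = 3) in dI4, so both sorts carried it and dI4 carried more, by a difference of -2.40 ± 0.13 (SE). The endopeptidase gene Ecel1 differed by -2.71, the C-type natriuretic peptide gene Nppc by -2.11, the gastrin-releasing peptide gene Grp by -1.93 and the enkephalin gene Penk by -1.20. The neuromedin B gene Nmb was the last of the lower genes, with 3.61 and 3.56 in V1 and 4.41 to 4.74 in dI4. Pdyn, the dynorphin gene of dorsal inhibitory neurons, read 6.42 and 7.65 in V1 and 10.57, 10.27 and 9.62 in dI4 and narrowly missed the threshold (-3.12, limma adjusted p = 0.053). Tac1 and Gal, at -1.92 and -1.14, were called only without dI4 replicate 3 among the fits leaving out a sample. Somatostatin (Sst) lay between 9.21 and 9.62 and nociceptin (Pnoc) between 10.78 and 11.13 in all samples, the sorts overlapped, and neither was called.

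Of 30 peptide receptor genes 1 was higher and 1 lower in V1 (3 and 1 without dI4 replicate 3). The share called, 6.67%, was close to the 5.49% of all genes. Sstr3, a somatostatin receptor, read 5.41 and 5.23 in V1 and was at control level in dI4 (2.27 to 2.34), a difference of 3.02 ± 0.07 (SE; limma adjusted p = 0.00114) that held in every fit leaving out 1 sample. Tacr3, the neurokinin 3 receptor, was lower in V1 by -1.14. Trhr, the thyrotropin-releasing hormone receptor, read 10.10 and 10.28 in V1 and 7.90, 7.96 and 6.55 in dI4. It missed the threshold (2.72, limma adjusted p = 0.0714) and passed without dI4 replicate 3, its lowest sample.

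All the called receptors for acetylcholine and monoamines were higher in V1, 7 of 31 with none lower, and 4 with 1 lower without dI4 replicate 3. The list's median was 0.22. Htr1b, a Gi-coupled serotonin receptor, read 10.45 and 9.87 in V1 and 4.35, 4.50 and 4.69 in dI4. Its difference of 5.65 ± 0.22 (SE; limma adjusted p = 0.00353) was the only one of the 7 called in every fit that left out 1 sample. The serotonin receptors Htr4 and Htr1d were higher by 2.20 and 1.34, the muscarinic receptor Chrm3 by 2.66, the nicotinic subunits Chrna3 and Chrna5 by 1.89 and 1.39, and the adrenergic receptor Adra2a by 0.60. Chrna2, the nicotinic subunit known from Renshaw cells, differed within V1. It read 5.87 in the averaged pair and 1.97, control level, in V1 replicate 2, and was at control level in dI4 (2.01, limma adjusted p = 0.471).

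Calcium-binding and related proteins were likewise called only as higher, 5 of 18 (4 without dI4 replicate 3), with a median of 0.40. Sncg, gamma-synuclein, read 10.36 and 9.96 in V1 and 2.65, 3.38 and 2.65 in dI4, a difference of 7.27 ± 0.30 (SE; limma adjusted p = 0.00396) that held in every fit leaving out 1 sample. Calb2, calretinin, was higher by 2.19, with both V1 samples at 10.25 and dI4 between 7.81 and 8.38. Caln1, Vsnl1 and Pcp4 were higher by 1.10, 0.57 and 0.39. Calb1, the calbindin of Renshaw cells, read 9.90 and 9.52 in V1 and 9.75, 9.65 and 8.46 in dI4, so the sorts overlapped.

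Of 50 potassium channel genes 6 were higher and 5 lower in V1 (5 and 7 without dI4 replicate 3). The higher genes include the voltage-gated subunits Kcna6, Kcna2, Kcna3 and Kcnc1 (2.06, 1.29, 1.25 and 0.93) and the leak channel Kcnk3 (1.26). The lower genes include the inward rectifiers of glia Kcnj10 and Kcnj16. Kcnj10 read 3.16 and 2.31 in V1 and 8.25, 8.36 and 8.35 in dI4, a difference of -5.59 ± 0.27 (SE; limma adjusted p = 0.00555), and was the only channel of this list called in every fit that left out 1 sample. Kcnj16 differed by -6.30, with the astrocyte marker sums given above moving the same way. The channel-interacting proteins Kcnip3 and Kcnip2 were lower by -6.08 and -2.56, and Kcnj6 by -1.74, which became 0.07 on the probe set used when cross-hybridizing ones were set aside.

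Among 35 sodium, calcium and cation channel genes 2 were higher (Trpc4 by 1.94 and the AMPA receptor auxiliary subunit Cacng2 by 1.03) and 2 lower in V1, and 5 and 4 without dI4 replicate 3. Cacna2d1, the alpha-2-delta subunit that binds gabapentin, read 3.54 and 3.46 in V1 and 9.99, 9.69 and 9.81 in dI4. The V1 samples were just above control level, and the difference of -6.33 ± 0.10 (SE; limma adjusted p = 0.000531) held in every fit leaving out 1 sample. Cacng4 was lower by -0.64.

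Receptors for GABA, glycine and glutamate had calls both ways. In each of these lists the share called was above the 5.49% of all genes. Of 23 GABA and glycine receptor genes the glycine receptor subunit Glra3 and the GABA-A subunit Gabrb2 were higher in V1, by 1.32 and 0.86, and Gabrg1 was lower by -1.45 (3 and 3 called without dI4 replicate 3). Of 24 glutamate receptor genes Grm4 was higher by 1.69, and the metabotropic Grm3 and Grm5 and the kainate subunit Grik2 were lower by -1.28, -0.98 and -0.83 (2 and 3 called without dI4 replicate 3). None of these was called in every fit that left out 1 sample.

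Of 35 synaptic vesicle genes 3 were higher and 2 lower, with or without dI4 replicate 3. Sv2b, a vesicle glycoprotein, read 12.68 and 12.51 in V1 and 10.82 to 11.05 in dI4 and was higher by 1.64, and the calcium sensor Doc2b by 1.53. The calcium sensor Syt10 was lower by -4.02, with V1 at 3.06 and 3.16 and dI4 at 7.44, 7.29 and 6.65, and the priming factor Unc13c by -1.93. Neurofilament genes of larger axons were higher in V1, Nefm by 1.07 and Nefl by 0.46, as was Thy1 by 1.33, and these were the 3 called genes of 25 for mature neuron structure (5 higher and 1 lower without dI4 replicate 3). Nefh read 10.29 and 9.27 in V1 and 6.44, 6.26 and 4.76 in dI4, without overlap, and missed the threshold (3.96, limma adjusted p = 0.0592). None of 15 genes of immature neurons was called, and 2 were lower without dI4 replicate 3. With all 17 arrays fitted together 4 were lower and none higher. Ccnd2 of that list differed by -4.14 on the probe set used. Its other probe sets differed by -3.15 to -6.34, and some of them were called when all probe sets were fitted. Dcx, doublecortin, was at a mean of 14.2 in V1 and 14.4 in dI4.

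**Figure D3:**
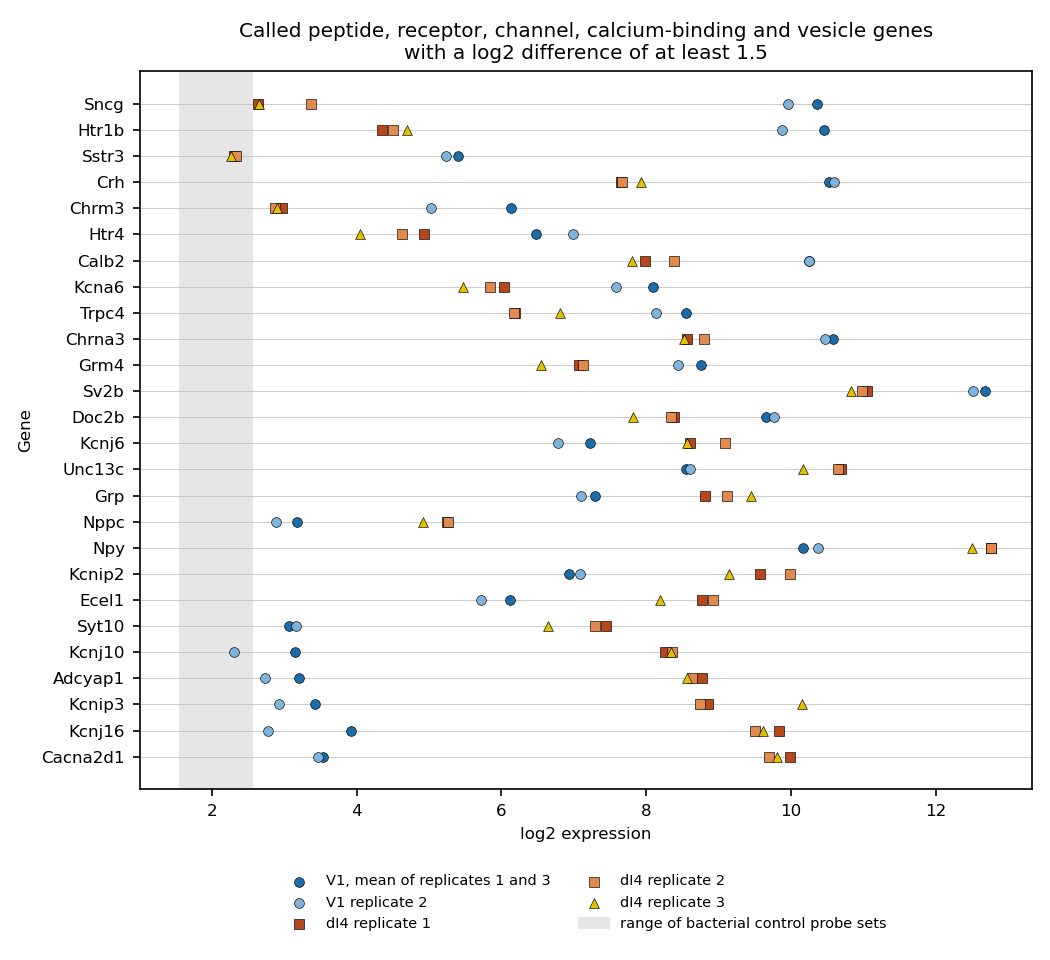
Log2 expression (x axis) in each sample at P0 for the 26 called peptide, receptor, channel, calcium-binding and vesicle genes (y axis) that differ by at least 1.5 on the log2 scale, with symbols as in the plot of transcription factors. Sncg (10.36 and 9.96 in V1) and Htr1b (10.45 and 9.87) stand far to the right of their dI4 values, and Cacna2d1, Kcnj16, Kcnip3 and Adcyap1 read under 4 in both V1 samples and over 8 in every dI4 sample.

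Among the lists of genes that wire circuits, only axon guidance had calls both ways with all samples. Of 40 synaptic adhesion genes 5 were higher and none lower in V1 (6 and 1 without dI4 replicate 3), namely the synaptic organiser Cbln4 by 1.94, Slitrk6 by 1.20, Lrrtm3 by 0.99, Slitrk1 by 0.61 and Flrt2 by 0.53. Of 25 cadherins Cdh10 alone was called, higher by 1.56 (5 higher and 1 lower without dI4 replicate 3). That is 4% of the list, against 5.49% of all genes. Among 56 genes of axon guidance, V1 was higher for 8 and lower for 6 (9 and 7 without dI4 replicate 3), with a median of 0.18.

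Of 6 class 3 semaphorins, secreted repellents, 3 were higher in V1 and 3 were not called, a grouping made after the values were seen. Sema3a read 11.96 and 11.91 in V1 and 9.37, 9.32 and 9.47 in dI4, a difference of 2.55 ± 0.06 (SE; limma adjusted p = 0.00114), and was the only guidance gene called in every fit that left out 1 sample. Sema3g and Sema3c were higher by 2.51 and 1.94. The semaphorin co-receptors moved apart, with Nrp2 higher by 1.47 (12.94 and 12.93 against 11.23 to 11.83) and Nrp1 lower by -1.74 (10.53 and 10.69 against 12.12 to 12.62). The Eph receptor Epha4 was higher by 1.37, the netrin receptor Dcc by 1.10, Slit2 by 0.98 and Efna3 by 0.59. Ntn1, netrin itself, was lower by -1.07, as were Sema6d (-1.01), Efnb2 (-0.90), Plxna2 (-0.76) and Efnb3 (-0.57).

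Of 35 Hox genes, which encode position along the body axis, 5 were higher and 6 lower in V1 (8 and 6 without dI4 replicate 3), and none was called in every fit that left out 1 sample. By cluster, a grouping made after the values were seen, 6 of 9 HoxB genes were lower and none higher, with a median of -1.23. HoxA had 4 of 10 higher and none lower (median 0.66), HoxD 1 of 9 higher, and none of 7 HoxC genes was called. Hoxb9 had the largest HoxB difference, with 5.81 and 5.83 in V1 and 9.59, 9.47 and 8.65 in dI4 (-3.42 ± 0.33, SE; limma adjusted p = 0.0192). Hoxb6, Hoxb3, Hoxb4, Hoxb2 and Hoxb7 were lower by -2.04, -1.46, -1.31, -1.23 and -0.28. Hoxa11, normally expressed in the caudal cord, read 9.38 and 9.22 in V1 and 3.83, 4.03 and 5.69 in dI4, highest in dI4 replicate 3 (4.78 ± 0.65, SE; limma adjusted p = 0.0386). Hoxa5, Hoxa4, Hoxa2 and Hoxd9 were higher by 1.66, 1.14, 1.03 and 1.01. The share of each sort taken from each level of the cord was not tested.

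Of 59 signalling genes 7 were higher and 9 lower in V1 (7 and 12 without dI4 replicate 3), with a median of 0.00. Ngfr, the p75 neurotrophin receptor, read 9.75 and 9.62 in V1 and 6.19, 6.50 and 6.54 in dI4, a difference of 3.27 ± 0.13 (SE; limma adjusted p = 0.00396). The Wnt antagonist Sfrp2 was higher by 1.73, the GDNF co-receptor Gfra1 by 1.61, the neuregulin receptor Erbb4 by 1.53, and Igfbp5, Igf1 and Tgfb2 by 1.51, 1.19 and 1.02. On the other side, Hes5, a Notch target, read 4.54 and 5.58 in V1 and 9.66 to 9.89 in dI4 and was lower by -4.75, Fgfr3 by -4.20, Wnt7a by -3.66 and Notch2 by -2.69. Fgfr3 is also an astrocyte marker and Hes5 a progenitor gene, and 8 of 15 and 8 of 16 members of those lists were lower in V1. Sfrp1, Kit, Ptn, Tgfb3 and Dkk3 were lower by -1.54, -1.33, -0.99, -0.85 and -0.68. Ngfr and Fgfr3 were called in every fit that left out 1 sample.

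**Figure D4:**
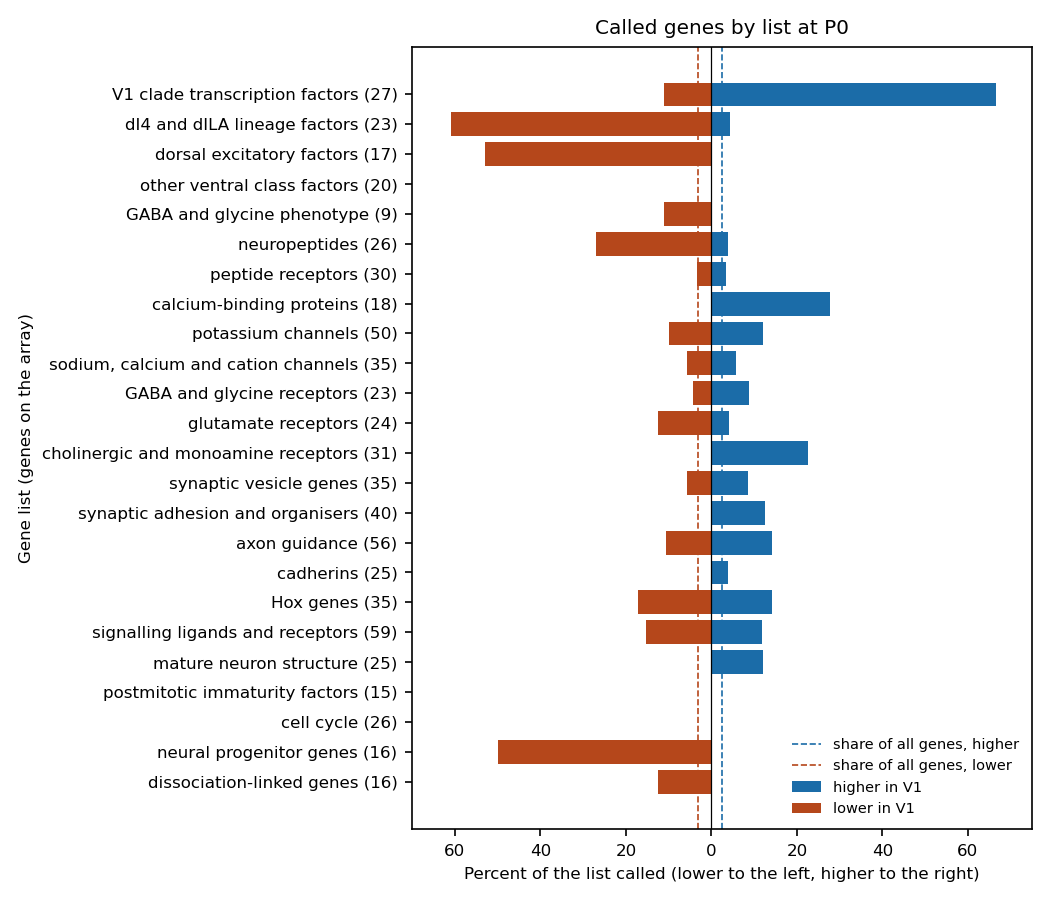
Percent of each list's genes on the array (number in parentheses, y axis) called higher in V1 (blue, to the right) or lower (orange, to the left) at P0, with dashed lines at the shares of all genes, 2.44% and 3.05%. The V1 clade list has 18 of 27 called higher, the dI4/dILA list 14 of 23 lower, and receptors for acetylcholine and monoamines, calcium-binding proteins and synaptic adhesion genes have calls to the right only.

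Many genes of progenitors and glia were lower in V1. Of 16 neural progenitor genes 8 were lower and none higher, with a median of -3.11 (9 and -2.89 without dI4 replicate 3). Sox2, a factor of dividing neural cells and of glia, read 4.24 and 2.69 in V1 and 10.17, 10.27 and 10.55 in dI4, a difference of -6.87 ± 0.51 (SE; limma adjusted p = 0.0121). Id3, Pax6, Fabp7, Vim and Id4 differed by -6.50, -4.21, -3.73, -2.99 and -1.68. Vim, Pax6, Id4 and Slc1a3 were called in every fit that left out 1 sample.

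Slc1a3, the glial glutamate transporter GLAST, read 4.73 and 4.15 in V1 and 11.94 to 12.40 in dI4, a difference of -7.67 ± 0.25 (SE; limma adjusted p = 0.00238). Gfap, the astrocyte filament gene, read 4.21 in the V1 pair and 2.65 in V1 replicate 2, and 11.07, 11.42 and 10.84 in dI4. Its difference was -7.68 ± 0.53 (SE; limma adjusted p = 0.0106), and it was not called without dI4 replicate 1 or 2, at -7.70 and -7.53. Tnc, an extracellular matrix gene of immature astrocytes, differed by -7.45, Slc4a4 by -6.06, the water channel Aqp4 by -5.66, Fgfr3 by -4.20, the gap junction gene Gja1 by -4.17 and Slc1a2 by -1.58. Slc1a3, Slc4a4, Fgfr3 and Tnc held in every fit leaving out 1 sample. Aldoc was high in both sorts, between 12.90 and 13.49, and was not called (0.17). Its other probe set, with means of 6.33 in V1 and 9.76 in dI4, differed by -3.43 and was not called either.

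The 4 remaining genes among the 15 named as lower by the size of the measured difference belonged to none of the lists and were low in both V1 samples. Mlc1, a membrane protein of astrocyte endfeet, read 2.04 and 2.20 in V1 and 8.99, 9.87 and 9.58 in dI4 (-7.36 ± 0.29, SE). The homeodomain-only gene Hopx read 5.19 and 4.10 against 11.92 to 12.30 (-7.43 ± 0.37, SE), and the adhesion gene Vcam1 2.52 in both V1 samples against 10.10 to 10.42 (-7.74 ± 0.11, SE). C130021I20Rik read 2.71 and 1.92 against 9.89, 9.99 and 10.35 (-7.76 ± 0.30, SE). All of these were called in every fit that left out 1 sample.

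The oligodendrocyte list had 3 of 15 members lower in V1 and none higher (4 without dI4 replicate 3), Olig1 by -6.79, Olig2 by -3.85 and Pdgfra by -3.77, all genes of the precursor stage. Its sums were 6789 and 2288 in V1 and 8271 to 11325 in dI4. Pdgfra was called in every fit that left out 1 sample. The myelin gene Mbp varied within both sorts. It read 11.06 in the V1 pair, 7.58 in V1 replicate 2 and 11.13, 11.56 and 8.12 in dI4, and was not called.

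None of 26 cell cycle genes was called, and 5 were lower in V1 without dI4 replicate 3, where the median went from -0.96 to -0.52. Over the list the mean log2 expression was 5.05 and 5.20 in V1 and 5.85, 6.03 and 7.23 in dI4 replicates 1, 2 and 3, so every dI4 sample lay above V1 and replicate 3 was highest. The V1 samples lay below all dI4 samples for 17 of the 26, against 15.1% of all genes. Cdk1, the mitotic kinase, read 3.73 and 3.75 in V1, 4.40 and 4.55 in dI4 replicates 1 and 2 and 8.22 in dI4 replicate 3. Mki67, the proliferation antigen, read 7.34 and 8.22 in V1 and 10.36, 10.71 and 12.22 in dI4 without overlap, and was not called (-3.31, limma adjusted p = 0.0879). None of 12 microglial markers was called with or without dI4 replicate 3, and their median went from -0.74 to 0.07 without it. The markers summed to 6162 and 9608 in V1 and to 3720, 13438 and 36864 in dI4 replicates 1, 2 and 3. Csf1r, the growth factor receptor of microglia, read 9.21 and 10.37 in V1 and 8.55, 10.78 and 12.51 in dI4, and Trem2 was at control level in all.

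Of 16 dissociation-linked genes Fos and Egr1 were lower in V1, by -2.76 and -2.91, with a list median of -1.04. Fos was called in none of the 5 fits that left out 1 sample, and Egr1 lost its call in all of them but the fit without V1 replicate 2. Ier3 was higher, by 0.53, without dI4 replicate 3. Fos read 9.97 and 10.82 in V1 and 13.26, 12.81 and 13.39 in dI4. Their sums over the list were 7909 and 11011 in V1 and 21749 to 40895 in dI4, and the part of the dissociation in the differences was not tested.

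Markers of other cells gave few calls. None of 11 endothelial and mural markers was called, and 1, Pdgfrb, was lower without dI4 replicate 3. Their sums were 94.3 and 103 in V1 and 221 to 269 in dI4, with Pecam1, Cdh5 and Cldn5 at control level in all samples. None of 8 motor neuron or 4 blood markers was called. Of 9 Schwann and sensory ganglion markers Foxd3, also a V1 factor, was higher and Pmp22 was lower, and Trpv1 and Scn10a were at control level. Of 8 ependymal and meningeal markers the collagens Col1a2 and Col3a1 were lower, by -4.62 and -3.90, while Foxj1 and Dnah5 were at control level, and the Col3a1 value was 0.02 when cross-hybridizing probe sets were set aside.

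**Figure D5:**
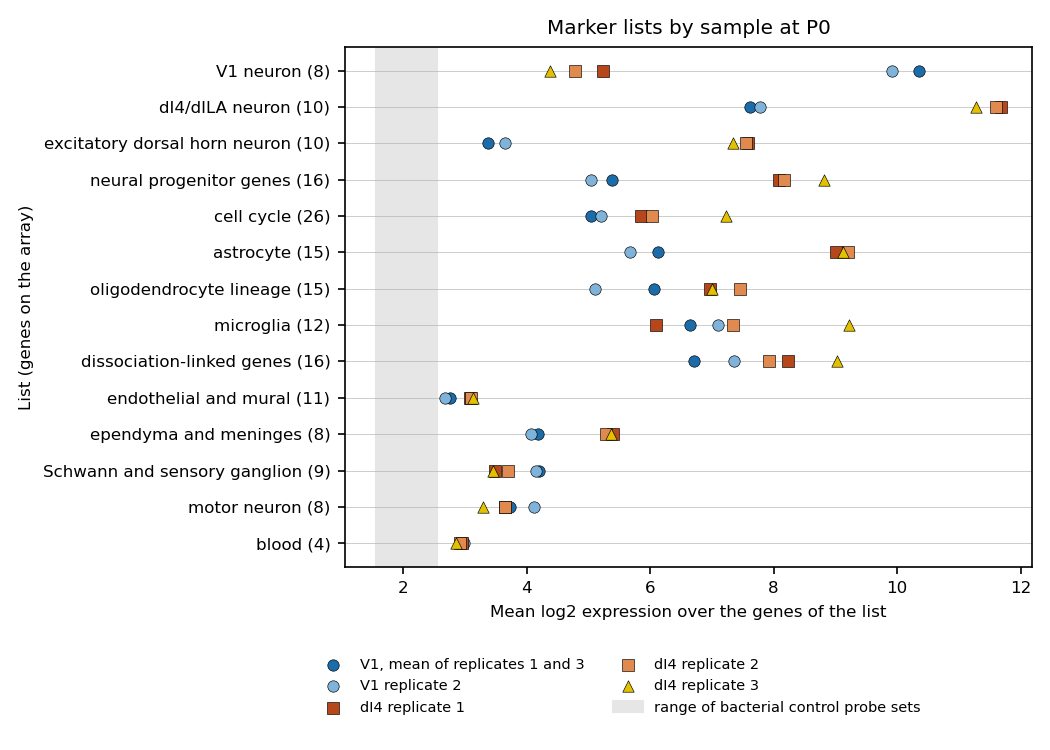
Mean log2 expression over the genes of each marker list (x axis) in the 2 V1 samples (circles) and 3 dI4 replicates (squares and triangle) at P0. Astrocyte, progenitor and excitatory lists lie higher in every dI4 sample than in either V1 sample (astrocyte 6.13 and 5.68 against 9.01 to 9.20), and dI4 replicate 3 stands to the right for the microglia (9.22) and cell cycle (7.23) lists.

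Among the 15 genes named as higher by the size of the measured difference, 4 belonged to none of the lists. Cyp1b1, a cytochrome P450, read 9.75 and 10.56 in V1 and 3.74, 3.65 and 2.76 in dI4, a difference of 6.77 ± 0.43 (SE; limma adjusted p = 0.00947). It was not called without V1 replicate 2, without the V1 pair or without dI4 replicate 2, at 6.36, 7.18 and 6.90. Pmfbp1, known from the sperm neck, read 8.63 and 8.55 in V1 and 2.73, 2.34 and 2.04 in dI4 (6.22 ± 0.22, SE; limma adjusted p = 0.00301). Irs4, an insulin receptor substrate on the X chromosome, read 10.16 and 10.29 against 4.15, 4.22 and 3.67 (6.21 ± 0.20, SE; limma adjusted p = 0.00238). Shh, the ventral morphogen Sonic hedgehog, read 7.77 and 8.79 in V1 and was at control level in dI4, at 2.32 to 2.46 (5.88 ± 0.33, SE; limma adjusted p = 0.00709). Pmfbp1, Irs4 and Shh were called in every fit that left out 1 sample.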

How the data were processed

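The authors deposited log2 expression per probe set (45101 probe sets, Affymetrix mouse arrays), with Partek 6.6, RMA and GCRMA named in the submitters' processing notes without role or order. Both deposited tables hold the same values in all 766717 cells. The authors' deposited fold and p columns were not used. Symbols came from the deposited annotation, updated by Entrez identifier through a GRCm38.p6 gene table (34668 probe sets matched, 3821 symbols updated). Controls (64), probe sets with no symbol (5812) and with several genes (1399) were set aside. The 37826 others gave 20678 genes, 1 probe set each (highest mean over the 6 arrays). No filter on dim probe sets was used.

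V1 and dI4 at P0 were compared with limma 3.58.1 (lmFit, eBayes) in R 4.3.3, with V1 replicates 1 and 3 averaged. Same-numbered replicates deviated with correlations of -0.10, 0.04 and 0.10 and were treated as unpaired. Signal over background and the number of arrays limit precision. Named in the text are En1, Ptf1a, the 15 called genes per direction with the largest difference and no overlap, and list members; some of these genes are not reported here. Genes and lists were chosen with earlier results of these data known.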

Additional observations from a re-analysis of the deposited data

Results flagged for a closer look

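Of the 5812 probe sets with no gene symbol, which entered none of the comparisons above, 38 were called higher and 108 lower in V1 at P0 in a limma fit over all probe sets. That is 2.51% of them, against 4.01% of all probe sets. The 2 largest differences in favour of V1 were 3.08 (group means 9.04 in V1 and 5.96 in dI4, limma adjusted p = 0.00927) and 2.95 (7.78 and 4.83, adjusted p = 0.0271). In the other direction they were -6.41 (3.76 and 10.17, adjusted p = 0.0108) and -5.43 (2.35 and 7.78, adjusted p = 0.00367). Their genes are not named here.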

How the results depend on the processing

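Called genes numbered 1135 (504 higher, 631 lower). They numbered 2920 (1509 and 1411) with V1 replicates 1 and 3 entered separately, 1925 (1289 higher, 636 lower) with arrays centred on their medians, 1556 (704 higher) with a filter on dim probe sets and 1439 with the probe set of largest interquartile range. Between 974 and 1375 were called with quantile normalization, trend or robust eBayes, all 17 arrays, cross-hybridizing probe sets set aside or probe sets averaged. With the replicate block 1022 were called (453 and 569), 803 of them in the original set, and not every V1 replicate correlated best with the dI4 replicate of its own number. Without the V1 pair 217 were called (70 and 147), and leaving out 1 other sample gave 225 to 1518 calls, 74 to 697 higher and 151 to 821 lower. The 30 named genes kept their direction in every setting listed here, and 23 to 30 were called. Of the 1135 genes, 1113 kept their sign with cross-hybridizing probe sets set aside, 1131 with the largest interquartile range and 1130 with probe sets averaged. Among members of the lists, called or not, signs reversed for Kcnj6 (0.0689) and Col3a1 (0.0241) with cross-hybridizing probe sets set aside, Pclo (1.11), Rgmb (-0.84) and Ntrk2 (-3.25) with the largest interquartile range, Ier3 (0.53) without dI4 replicate 3 (from -0.31 over samples left out) and Aldoc (-1.63) with probe sets averaged. In the first 5 and the last, another probe set was read; for Ier3 the cause was not tested. Of 9531 genes with several probe sets, 4 had some called each way. For 5159 genes both sorts lay at control level, as did dI4 for 11 higher and V1 for 26 lower genes, where only a bound on the difference is known.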

Other observations

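Genes outside the lists, picked after their values were seen, added 2 groups. In the retinoid pathway, which converts retinol to retinoic acid, Aldh1a2, a synthesis enzyme, read 8.83 and 7.38 in V1 and 2.91, 3.85 and 2.86 in dI4, a difference of 4.89 ± 0.58 (SE; limma adjusted p = 0.0289, and 0.0607 without dI4 replicate 3). Crabp2, which carries retinoic acid, was higher in V1 by 4.24 and the related dehydrogenase Aldh1a7 by 3.44. Aldh1a1, Aldh1a3, Crabp1, Cyp26b1, Rbp4, Rdh10, Dhrs3, Rara, Rarb and Rarg were not called, and lay between -1.50 and 1.31. The difference of Aldh1a2 was 5.62 without V1 replicate 2 and 4.17 without the V1 pair.

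Further genes of progenitors and glia were lower in V1. Sox21 read 2.29 and 2.30 in V1 and 9.28, 8.98 and 9.55 in dI4 (-6.98 ± 0.19, SE; limma adjusted p = 0.00155). Hepacam, Rfx4, Apoe, Mt1 and Sox1 differed by -6.47, -5.98, -5.86, -5.78 and -5.67, and the Hippo pathway factors Yap1 and Wwtr1 by -4.69 and -4.46. The zinc finger factors Bcl11a and Bcl11b, which are neuronal, were lower by -2.84 and -3.28, with dI4 near 13 and V1 near 10 for both. Over the fits that left out 1 V1 sample Mt1 went from -6.75 to -4.81, Sox1 from -6.43 to -4.92 and Yap1 from -5.38 to -4.0. Aldh1a2 and Mt1 were called in none of the 5 fits that left out 1 sample.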
